A study of Mus musculus and Sus scrofa with 30 samples.

Results

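A set of 10 genes used as markers of preadipocytes and other stromal progenitors was followed in 2 cell systems: Pdgfra, Pdgfrb, Pdgfrl, Cd34, Thy1, Dpp4, Eng, Nt5e, Vcam1 and Pi15. A member was any row of the mouse 3T3-L1 table or the pig DFAT table whose gene name equals 1 of the 10 names, ignoring case. That gave 18 of 59150 gene rows, 9 of 24843 in the mouse table and 9 of 34307 in the pig table; mouse Dpp4 and pig THY1 were not analysed here. The names were listed with the day 5 values in view, and 2 members had been picked on falls in their own levels: Pdgfrl on its fall with magnolol in 3T3-L1, and PI15 on its falls with magnolol and with both compounds in DFAT. Those 3 differences, and the other comparisons of the same gene with the same treated libraries, are given as descriptions with no test or left out, and they do not enter the counts. Other comparisons of these 2 genes share the vehicle libraries with that choice and are not independent of it. A minimum mean of 10 normalized counts over the 15 libraries of a table was met by 8 mouse members, all but Nt5e, and by all 9 pig members.

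Preadipocytes and fibro-adipogenic progenitors carry receptors for platelet-derived growth factor, and PDGFRα in particular is used to sort them from fat and muscle. As a progenitor takes on the adipocyte fate, it ordinarily loses many surface proteins of its stromal state while it gains lipid-handling genes under the nuclear receptor PPARγ. The other members are adhesion molecules and surface glycoproteins (Thy1, Vcam1, Eng, Cd34), ectoenzymes (Nt5e, Dpp4) and a secreted protein (Pi15), several of which serve in panels that define mesenchymal stromal cells.

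The study tested whether the plant-derived compounds magnolol and dicoumarol increase fat cell formation for food use. Mouse 3T3-L1 cells, a fibroblast line from embryos that can turn into adipocytes, and pig DFAT cells, mature fat cells of subcutaneous fat that were returned to a dividing state in culture, were induced to differentiate and sampled on day 5. Each system had 5 groups of 3 libraries: DMSO as vehicle, dicoumarol (a coumarin anticoagulant), magnolol (a biphenol of magnolia bark), both compounds together, called the combination here, and rosiglitazone (a drug that activates PPARγ). The induction medium was the same for all 5 groups of a system: for 3T3-L1 it had 10% serum with IBMX (37.5 µM), dexamethasone (75 nM) and insulin (0.75 µg/mL), and for DFAT 2% serum with biotin (20 µM), pantothenate (10 µM), dexamethasone (0.5 µM) and IBMX (12.5 µM). The sources used here give neither the doses of the compounds nor the number of pigs behind the DFAT cells. Nothing says that the 3 libraries of a group came from separate cultures, so p-values measure only the spread between these libraries.

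Levels are the authors' counts per gene divided by a size factor per library, called normalized counts, and each table was normalized on its own. The 3T3-L1 libraries held an estimated 22.8 to 30.7 M reads and the DFAT libraries an estimated 44.8 to 70.5 M. The 3 values of a group are given in the order of the replicate numbers 1 to 3. Mitochondrial genes took 5.22% to 7.72% of the counts in the 3T3-L1 libraries outside rosiglitazone and 14.3%, 7.67% and 11.6% in the 3 rosiglitazone libraries; in DFAT they took 6.85% to 15.1% over all 15. The cells were checked against marker lists. In 3T3-L1 all 12 fibroblast markers with a row passed the minimum, while all 7 endothelial markers lay under it and reached at most 12.8. DFAT showed 11 of 12 fibroblast markers and all 11 mural markers above the minimum, with 7 of 10 endothelial markers under it. Of 9 blood cell markers with a row in DFAT, 6 lay under the minimum, among them PTPRC, the pan-leukocyte marker, and 3 above it. In 3T3-L1, 2 of 5 blood cell markers and 3 of 9 mural markers with a row lay under the minimum.

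The members' own levels differed widely, and not all were well detected. Per kilobase of exon, vehicle-treated 3T3-L1 cells had the highest levels for Pdgfra (2046 ± 232 normalized counts per kb, SD, n = 3) and Thy1 (1852 ± 209), whose libraries overlapped. Pdgfrb followed at 966 ± 57.8, above every library of Vcam1 at 703 ± 90.7. Vcam1 did not overlap with Pdgfrl, at 532 ± 75.5. Pi15 was lower, at 88.2 ± 33.1. Eng at 12.5 ± 2.62, Cd34 at 3.26 ± 0.253 and Nt5e at 0.483 ± 0.152 were lower again, and no 2 of these last 4 genes overlapped. Transcripts of the common stromal markers endoglin, CD34 and CD73 were thus low in 3T3-L1. For DFAT no gene lengths were used and levels are not compared between genes, but CD34 also lay close to the minimum there, with 7.13 to 25.5 normalized counts.

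A set of 4 stretches of mouse promoter is shown, those found for members with mouse values analysed here. They cover 2 members that fell with rosiglitazone in 3T3-L1 (Pdgfra and Eng) and 2 low members that were not called or not tested (Cd34 and Nt5e). Entries for 5 members were found in the RefSeq promoter table of build GRCm38.p6, the fifth being Dpp4, whose mouse values were not analysed here. None was used for Pdgfrb, Pdgfrl, Thy1, Vcam1 and Pi15. Each sequence is the 250 bases before the start of the gene, 5′ to 3′ on the strand of the gene (plus for all 4): Pdgfra at chr5:75152001-75152250, Eng at chr2:32646345-32646594, Cd34 at chr1:194938571-194938820 and Nt5e at chr9:88327359-88327608. Capitals mark matches to a searched motif.
Pdgfra: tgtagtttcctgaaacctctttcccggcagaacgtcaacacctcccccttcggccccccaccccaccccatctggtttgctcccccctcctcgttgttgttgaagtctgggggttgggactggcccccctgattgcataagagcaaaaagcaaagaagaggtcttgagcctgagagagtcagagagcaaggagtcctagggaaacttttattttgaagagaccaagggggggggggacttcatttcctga
Eng: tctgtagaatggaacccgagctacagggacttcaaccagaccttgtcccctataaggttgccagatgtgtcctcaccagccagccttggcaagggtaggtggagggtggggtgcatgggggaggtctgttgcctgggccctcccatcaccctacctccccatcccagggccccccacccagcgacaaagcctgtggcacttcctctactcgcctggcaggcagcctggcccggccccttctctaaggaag
Cd34: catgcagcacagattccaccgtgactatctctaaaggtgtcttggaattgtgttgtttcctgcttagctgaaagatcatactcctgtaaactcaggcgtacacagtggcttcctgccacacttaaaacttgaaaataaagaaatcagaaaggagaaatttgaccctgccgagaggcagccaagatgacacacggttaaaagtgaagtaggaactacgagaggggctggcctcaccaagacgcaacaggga
Nt5e: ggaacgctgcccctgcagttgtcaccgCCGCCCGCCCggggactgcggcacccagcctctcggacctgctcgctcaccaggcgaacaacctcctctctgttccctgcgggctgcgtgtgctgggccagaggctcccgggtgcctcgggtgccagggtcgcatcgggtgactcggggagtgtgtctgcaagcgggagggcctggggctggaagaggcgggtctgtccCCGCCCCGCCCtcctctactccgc
The 6 motifs searched on both strands were the GC box GGGCGG, the TATA box TATAAA, the CCAAT box CCAAT, the AP-1 site TGANTCA, the nuclear receptor half-site AGGTCA and the GATA site AGATAA. Among all 32851 promoters of the table, windows of the same length held them in 32.7%, 12.4%, 33.9%, 6.75%, 14.0% and 9.99%. The Nt5e window held 4 GC boxes on the minus strand, with their first bases 223, 219, 24 and 19 bases before the start, in 2 overlapping pairs, and 72% of its bases were G or C. The windows of Pdgfra, Eng and Cd34 held none of the 6, with G and C at 54.4%, 62.4% and 46.4%, against a median of 52.4% over all promoters. A match is a description of letters, and no match says only that these letters are not in this window.

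Rosiglitazone lowered most members in 3T3-L1 cells. Pdgfra, Pdgfrb, Pdgfrl, Thy1, Eng, Vcam1 and Pi15 fell, 7 of the 8 members tested, where 19.9% of all 15723 genes tested fell. The median log2 fold change over these 8 was −0.93, against −0.00148 over all genes. With the combination 2 of 8 fell, Pdgfrb and Pdgfrl, against 1.36% of all genes, with a median of −0.46 beside −0.00893 over all genes. Pdgfrl had been picked on a fall against the same vehicle libraries. Its calls with rosiglitazone and the combination are thus not independent of that choice. With the replicate number as a block, 5 of 8 fell with the combination, the other 3 being Vcam1, Pdgfra and Pi15. Leaving out vehicle library 2 or combination library 1 left 1 of 8, Pdgfrl.

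In 3T3-L1 no member counted for a single compound passed; Pdgfrl, picked on its magnolol value, was not counted there. For magnolol 0 of the 7 members counted passed, by limma and by limma-voom, where 1.23% of all genes did; 2 of the 7 had an unadjusted p under 0.05. With the replicate block 1 member, Pdgfrb, passed. For dicoumarol 0 of 8 passed by either tool, 0 had an unadjusted p under 0.05, and 0.0% of all genes passed. The median was −0.23 over the 7 members counted for magnolol and −0.19 over the 8 for dicoumarol, while that over all genes was −0.00235 and 7.54e-04.

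In DFAT cells members moved in both directions. PDGFRA fell and NT5E rose with each of the 4 treatments. Dicoumarol gave 1 of 9 members higher, NT5E, where 0.911% of all 14819 genes tested rose, and 2 of 9 lower, PDGFRA and PI15, where 1.03% fell. Magnolol gave 1 of 8 higher, NT5E, against 2.96% of all genes, and 1 of 8 lower, PDGFRA, against 1.27%. The combination gave 2 of 8 higher, NT5E and DPP4, against 6.11%, and 1 of 8 lower, PDGFRA, against 4.06%. Rosiglitazone gave 2 of 9 higher, NT5E and PI15, against 5.8%, and 2 of 9 lower, PDGFRA and VCAM1, against 5.02%. PI15 had been picked on falls against the same vehicle libraries. Its calls with dicoumarol and rosiglitazone are thus not independent of that choice. Without vehicle library 2 only PDGFRA and VCAM1 passed with rosiglitazone. Of 15 alternative settings, PDGFRA with magnolol passed in 6, NT5E with rosiglitazone in 8 and DPP4 with the combination in 10.

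In DFAT the median log2 fold change was 0.19 for dicoumarol and −0.09 for rosiglitazone over all 9 members, and 0.22 for magnolol and 0.24 for the combination over the 8 members other than PI15, while that of all genes ran from −0.0104 for the combination to 3.43e-04 for dicoumarol. The comparisons with vehicle share the vehicle libraries within each system. Differences between the mouse and the pig system were not tested, since the tables were normalized separately. In these bulk libraries fewer cells that carry a transcript and less of it per cell cannot be told apart.

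**Figure D1:**
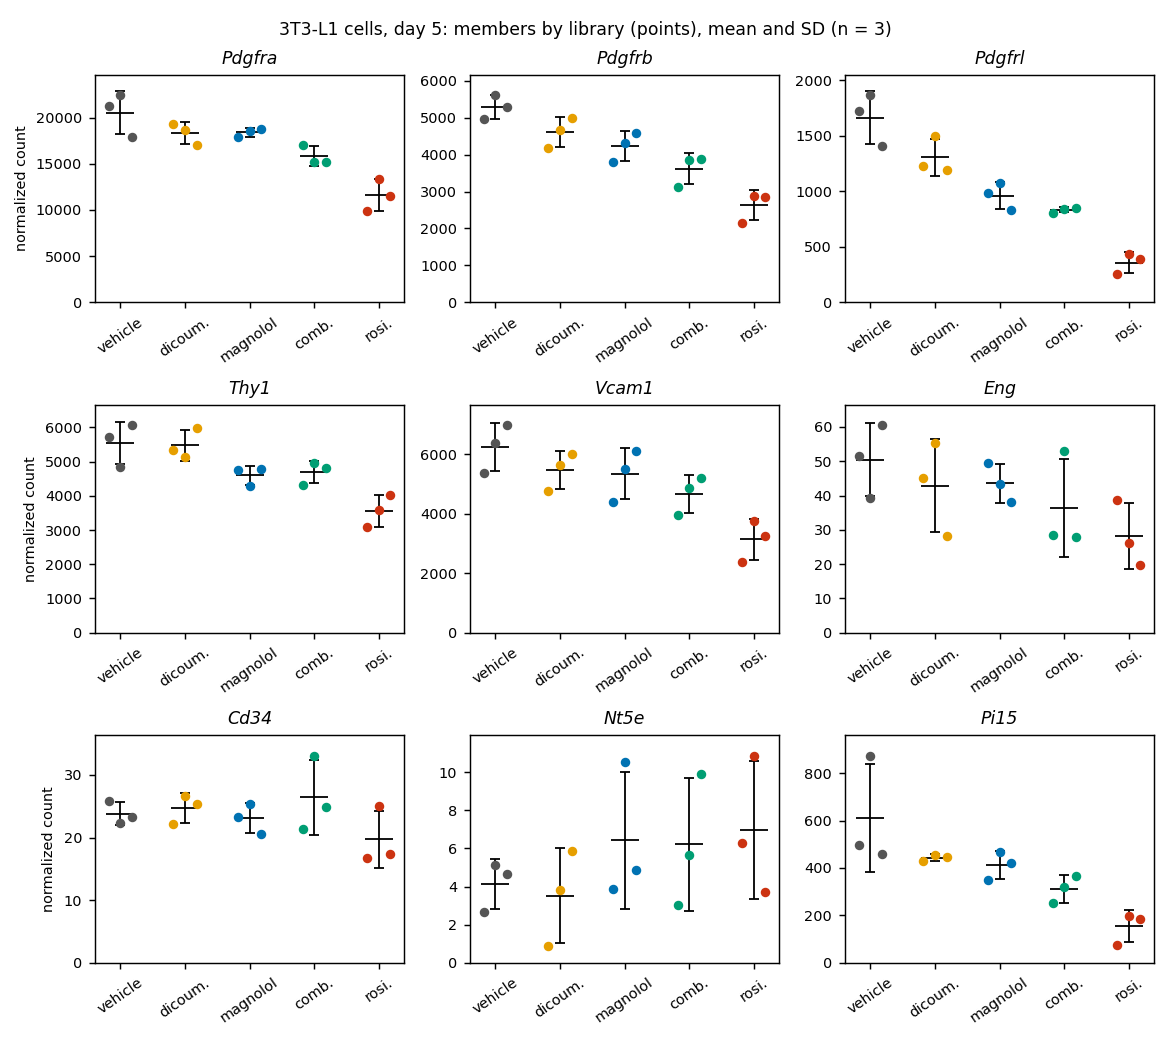
Normalized counts (vertical axes, linear from 0) of the 9 members with a row in the 3T3-L1 table, by treatment group (horizontal axes); each point is 1 library in the order of replicate number, and the bar and whiskers are the mean and SD of 3 libraries. Pdgfrl, Pdgfrb and Pi15 are lowest in the rosiglitazone libraries, while Cd34 and Nt5e overlap between all groups.

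**Figure D2:**
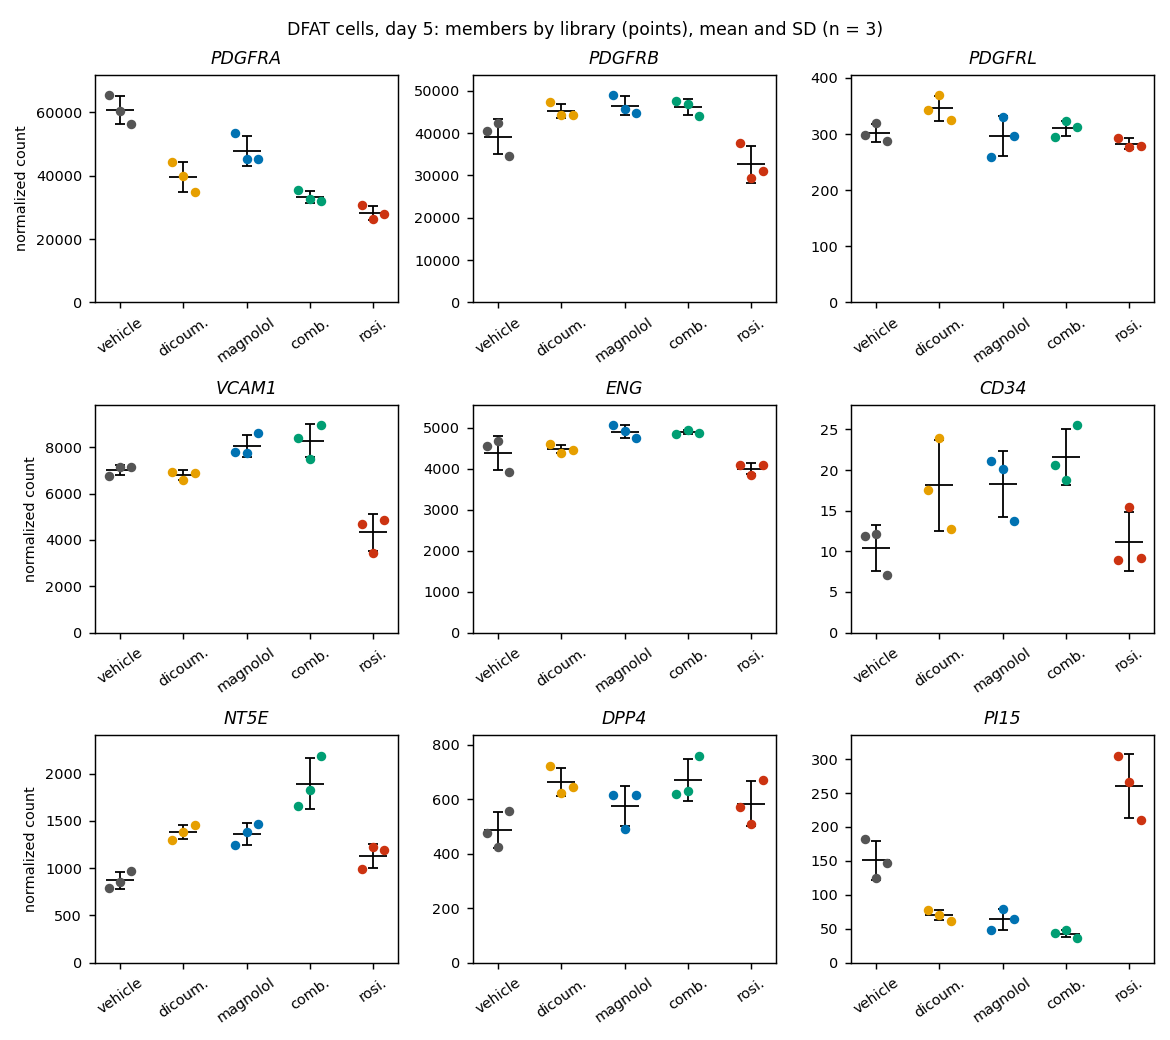
Normalized counts (vertical axes, linear from 0) of the 9 members with a row in the DFAT table, by treatment group (horizontal axes); each point is 1 library in the order of replicate number, and the bar and whiskers are the mean and SD of 3 libraries. PDGFRA is lower in all treated groups than in vehicle, NT5E is higher, and PI15 is lowest in the combination libraries and highest in the rosiglitazone libraries.

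The PDGF receptors come first. Pdgfra encodes the receptor tyrosine kinase PDGFRα and is listed in the mouse table as ENSMUSG00000029231 on chromosome 5 from 75312953 to 75358876, and in the pig table as ENSSSCG00000008841 on chromosome 8 from 40967493 to 41021441. In 3T3-L1 its normalized counts were 21200.1, 22412 and 17921 with vehicle, 19339.9, 18608 and 16987 with dicoumarol and 17886, 18516 and 18754 with magnolol. They were 17032, 15206 and 15216 with the combination and 9933, 13370.2 and 11482 with rosiglitazone. All rosiglitazone libraries lay below all others, and the combination libraries lay below all vehicle and magnolol libraries. The log2 fold change (log2FC) against vehicle was −0.83 (SE 0.11) with rosiglitazone, a 1.77-fold fall (limma adjusted p = 3.55e-05), and −0.37 (SE 0.11) with the combination (limma adjusted p = 0.0715). The combination value passed with the replicate block (limma adjusted p = 0.0197) and without vehicle library 3 (limma adjusted p = 0.0414).

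PDGFRA fell with all 4 treatments in DFAT. Its normalized counts were 65376, 60254 and 56399 with vehicle, 44159, 40038 and 34695 with dicoumarol and 53394, 45202 and 45166 with magnolol. With the combination they were 35558, 32492 and 31852, and with rosiglitazone 30701, 26236 and 27978. No treated library reached the lowest vehicle library, and no rosiglitazone library reached the lowest combination library. The fall was −0.62 (SE 0.0943) on the log2 scale with dicoumarol (limma adjusted p = 0.00130), −0.86 (SE 0.0943) with the combination (limma adjusted p = 7.24e-06) and −1.10 (SE 0.0943), or 2.14-fold, with rosiglitazone (limma adjusted p = 3.13e-07). With magnolol it was log2FC −0.34 (SE 0.0943), just inside the threshold (limma adjusted p = 0.0496). That magnolol call was lost without vehicle library 1, 2 or 3 or magnolol library 2 or 3, where the limma adjusted p ran from 0.0517 to 0.2098, and with 4 other settings.

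Pdgfrb encodes PDGFRβ, the receptor more typical of mural cells that many stromal progenitors also carry. Its 3T3-L1 normalized counts were 4972, 5606 and 5301 with vehicle, 4189, 4677 and 4977 with dicoumarol and 3789.6, 4309.6 and 4587 with magnolol. The combination gave 3133, 3841 and 3886 and rosiglitazone 2155, 2887 and 2863. Magnolol, combination and rosiglitazone libraries all lay below the lowest vehicle library, and dicoumarol libraries overlapped with vehicle. Pdgfrb fell by 2.02-fold with rosiglitazone, at log2FC −1.02 (SE 0.12) (limma adjusted p = 1.14e-05), and by 1.47-fold with the combination, at −0.55 (SE 0.12) (limma adjusted p = 0.0144). The combination call was lost without vehicle library 2 (limma adjusted p = 0.0576) or combination library 1 (limma adjusted p = 0.106). With magnolol the value was log2FC −0.33 (SE 0.12) (limma adjusted p = 0.329, or 0.00931 with the replicate block).

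In the fit of all 15 libraries with no replicate block, PDGFRB did not pass against vehicle with any treatment in DFAT. Vehicle libraries had 40506, 42343 and 34524 normalized counts, dicoumarol 47223, 44235 and 44243 and magnolol 48936, 45627 and 44831. The combination libraries had 47525, 46780.1 and 43989.7 and the rosiglitazone libraries 37552, 29279 and 31013. Every dicoumarol, magnolol and combination library lay above the highest vehicle library, and rosiglitazone overlapped with vehicle. Log2 fold changes were 0.21 (SE 0.0896), 0.25 (SE 0.0896) and 0.24 (SE 0.0896) for dicoumarol, magnolol and the combination (limma adjusted p = 0.384, 0.141 and 0.103). Rosiglitazone gave log2FC −0.27 (SE 0.0896) (limma adjusted p = 0.0710), which passed without vehicle library 3 (limma adjusted p = 0.0183) or rosiglitazone library 1 (limma adjusted p = 0.00805). With the replicate block PDGFRB passed with magnolol, the combination and rosiglitazone (limma adjusted p = 0.0305, 0.0239 and 0.0134).

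Pdgfrl encodes a secreted protein that resembles the ligand-binding part of PDGF receptors and has no kinase. In the mouse table it is ENSMUSG00000031595, on chromosome 8 from 41379249 to 41443822. Its 3T3-L1 normalized counts were 1724, 1865 and 1404 with vehicle, 1225, 1499 and 1194 with dicoumarol and 983, 1074 and 829 with magnolol. They were 807, 839 and 852 with the combination and 252, 432 and 389 with rosiglitazone. Magnolol, combination and rosiglitazone libraries all lay below the lowest vehicle library and below the lowest dicoumarol library. The fall with rosiglitazone was 4.73-fold, at log2FC −2.24 (SE 0.17) (limma adjusted p = 2.35e-07), the largest among the mouse members, and that with the combination 1.98-fold, at −0.99 (SE 0.17) (limma adjusted p = 0.00264). The magnolol value that picked the gene was log2FC −0.79 (SE 0.17), and dicoumarol gave −0.35 (SE 0.17) (limma adjusted p = 1.000).

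PDGFRL in DFAT ranged over 259.9 to 369 normalized counts over all 15 libraries. Its log2 fold changes against vehicle ran from −0.09 (SE 0.10) with rosiglitazone to 0.19 (SE 0.10) with dicoumarol, and neither passed (limma adjusted p = 0.677 and 0.541). The 95% interval for rosiglitazone was −0.30 to 0.12.

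The receptors' ligands were followed as a list of 4 genes. Counts over this and the other lists are against vehicle unless another comparison is named. They stand beside these shares of all genes. With rosiglitazone 6312 of 15723 passed in 3T3-L1, where 19.9% fell, and in DFAT 5.02% fell and 5.8% rose. With the combination 821 passed in 3T3-L1, where 1.36% fell, and in DFAT 4.06% fell and 6.11% rose. Magnolol gave 1.23% in either direction in 3T3-L1, and 1.27% lower and 2.96% higher in DFAT. Dicoumarol gave 0.0% in 3T3-L1, and 1.03% lower and 0.911% higher in DFAT. In 3T3-L1 the 2 ligands above the minimum did not pass with any treatment. In DFAT rosiglitazone lowered 2 of 4 and raised 1. PDGFD, which signals mainly through PDGFRβ, fell at −1.19 (SE 0.08) on the log2 scale (limma adjusted p = 1.83e-08) and PDGFC, a ligand of PDGFRα, at −0.23 (SE 0.06) (limma adjusted p = 0.0122). PDGFA, the other main PDGFRα ligand, rose at log2FC 0.29 (SE 0.07) (limma adjusted p = 0.00757). With the combination PDGFB, which binds both receptors, rose at log2FC 0.82 (SE 0.23) (limma adjusted p = 0.0277).

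Among the adhesion molecules, Thy1 (CD90, ENSMUSG00000032011 on chromosome 9 from 43954681 to 43959876 in the mouse table) is a small surface glycoprotein anchored by a lipid and a classic fibroblast and stromal cell marker. Its 3T3-L1 normalized counts were 5734, 4850.3 and 6059.6 with vehicle, 5335, 5126 and 5988 with dicoumarol and 4743, 4289 and 4783 with magnolol. The combination gave 4331, 4959 and 4818 and rosiglitazone 3087, 3589 and 4026. Only the rosiglitazone and magnolol libraries all lay below the lowest vehicle library. Thy1 fell by 1.56-fold with rosiglitazone, at log2FC −0.64 (SE 0.11) (limma adjusted p = 2.67e-04). Magnolol gave log2FC −0.26 (SE 0.11) and the combination −0.23 (SE 0.11), with limma adjusted p = 0.399 and 0.285.

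Vcam1 encodes an immunoglobulin-type adhesion receptor that binds integrins on white blood cells; it is ENSMUSG00000027962 on chromosome 3 from 115903598 to 115923337 in the mouse table and ENSSSCG00000006862 on chromosome 4 from 117496920 to 117511222 in the pig table. In 3T3-L1 it had 5374, 6373 and 6965 normalized counts with vehicle, 4764, 5629 and 6017 with dicoumarol and 4402, 5509.9 and 6091 with magnolol. It had 3947, 4855 and 5184 with the combination and 2385, 3763 and 3259 with rosiglitazone. Library 1 was the lowest of the 3 in every group. Rosiglitazone lowered Vcam1 2.01-fold, at log2FC −1.01 (SE 0.17) (limma adjusted p = 1.83e-04), and the combination value was −0.42 (SE 0.17) (limma adjusted p = 0.183, or 0.00163 with the replicate block).

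VCAM1 in DFAT also fell with rosiglitazone. Its normalized counts were 6755, 7132 and 7166 with vehicle, 6952, 6575 and 6904 with dicoumarol and 7779.7, 7756 and 8613 with magnolol. They were 8389, 7517 and 8944 with the combination and 4685, 3426 and 4859 with rosiglitazone. Every rosiglitazone library lay below all 12 others, and the magnolol and combination libraries lay above all vehicle libraries. The rosiglitazone fall was 1.64-fold, at log2FC −0.72 (SE 0.10) (limma adjusted p = 8.93e-05). The combination value of 0.24 (SE 0.10) did not pass (limma adjusted p = 0.156) but did with the replicate block (limma adjusted p = 0.0449).

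Integrins and other partners of VCAM1 and THY1 formed a list of 10. In 3T3-L1 all 5 above the minimum fell with rosiglitazone, among them Itgav at log2FC −0.98 (SE 0.19) and Itgb1 at −0.67 (SE 0.13) (limma adjusted p = 7.06e-04 and 6.23e-04), and none passed with the other treatments. In DFAT 4 of 6 rose with the combination and 3 of 6 with magnolol. ITGB3 rose at log2FC 1.38 (SE 0.17) with the combination (limma adjusted p = 2.42e-05) and ITGAV, at 0.68 (SE 0.10) (limma adjusted p = 1.43e-04). ITGA9, a chain of a VCAM1 receptor, rose at log2FC 0.40 (SE 0.10) with the combination and fell at −0.56 (SE 0.10) with rosiglitazone (limma adjusted p = 0.0173 and 0.00128). The list's median log2 fold change was −0.67 with rosiglitazone in 3T3-L1 and 0.54 with the combination in DFAT. ITGB3 also rose with rosiglitazone, at log2FC 0.77 (SE 0.17) (limma adjusted p = 0.00485).

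Eng encodes endoglin (CD105), a co-receptor for ligands of the TGF-β family, and is ENSMUSG00000026814 on chromosome 2 from 32536607 to 32572681 in the mouse table and ENSSSCG00000005625 on chromosome 1 from 268309400 to 268343783 in the pig table. At 19.8 to 60.5 normalized counts it was low in all 3T3-L1 libraries. Vehicle libraries had 51.7, 39.4 and 60.5 and rosiglitazone libraries 38.8, 26.1 and 19.8, with no overlap but a gap of less than 1 normalized count. The fall of log2FC −0.85 (SE 0.32) was just inside the threshold (limma adjusted p = 0.0420). It was lost without vehicle library 1 or 3 or rosiglitazone library 2 or 3 (limma adjusted p = 0.0804 to 0.161), and with 3 other settings. In DFAT ENG ranged over 3843 to 5056 normalized counts and did not pass against vehicle with any treatment. Its values there were log2FC 0.17 (SE 0.0626) with magnolol and −0.13 (SE 0.0626) with rosiglitazone (limma adjusted p = 0.166 and 0.258). Without vehicle library 3 the rosiglitazone value passed (limma adjusted p = 0.023).

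The list of endoglin partners held TGF-β family ligands, receptors, SMADs and their ID targets. In 3T3-L1, 10 of 17 fell with rosiglitazone, against 19.9% of all genes, and none rose. The list's median there was −0.44, and none passed with the other treatments. Id2 was at log2FC −1.41 (SE 0.39), Smad7 at −1.11 (SE 0.19) and Id3, like Id2 a target of BMP signalling, at −0.89 (SE 0.30) (limma adjusted p = 0.00945, 2.18e-04 and 0.0280). In DFAT 3 of 16 rose and 5 fell with rosiglitazone, and 2 rose and 3 fell with the combination, with medians of 0.01 and −0.10. TGFB3 rose at log2FC 1.20 (SE 0.09) with the combination (limma adjusted p = 4.76e-08), and ID2 fell at −0.71 (SE 0.10) (limma adjusted p = 9.94e-05). SMAD7, an inhibitory SMAD, rose at log2FC 0.45 (SE 0.10) with rosiglitazone in DFAT (limma adjusted p = 0.00590), the opposite sign to 3T3-L1; the difference between systems was not tested.

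Cd34 encodes a sialomucin found on vascular, blood and adipose progenitors, listed as ENSMUSG00000016494 on chromosome 1 from 194621127 to 194643587 for mouse and ENSSSCG00000039946 on chromosome 9 from 134913121 to 134937762 for pig. It held 16.8 to 33.1 normalized counts in 3T3-L1, every treated group overlapped with vehicle, and its rosiglitazone value was log2FC −0.28 (SE 0.25) (limma adjusted p = 0.390). In DFAT the counts were 11.8, 12.1 and 7.13 with vehicle, 17.6, 24.0 and 12.8 with dicoumarol and 21.1, 20.1 and 13.7 with magnolol. They were 20.6, 18.7 and 25.5 with the combination and 8.97, 15.4 and 9.17 with rosiglitazone. All dicoumarol, magnolol and combination libraries lay above the highest vehicle library. The combination value was log2FC 1.01 (SE 0.34), with a 95% interval of 0.30 to 1.73, and did not pass (limma adjusted p = 0.0676). It passed with no variance trend (limma adjusted p = 0.0395) and with the replicate block (limma adjusted p = 0.0428). No member of the CD34 family list other than mouse Podxl, at log2FC −1.28 (SE 0.39) with rosiglitazone (limma adjusted p = 0.0155), passed against vehicle in either system.

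Nt5e encodes the ectoenzyme CD73, which makes adenosine outside the cell from AMP. In the pig table it is ENSSSCG00000004291, on chromosome 1 from 54400810 to 54448742. DFAT libraries had 796, 853 and 968 normalized counts with vehicle, 1303, 1384 and 1455 with dicoumarol and 1239, 1377 and 1466 with magnolol. They had 1662, 1826 and 2189 with the combination and 987, 1222 and 1189 with rosiglitazone. Every treated library exceeded the highest vehicle library, and the combination libraries exceeded all others.

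NT5E rose 2.16-fold with the combination, at log2FC 1.11 (SE 0.11) (limma adjusted p = 1.61e-06). It rose 1.59-fold with dicoumarol, at log2FC 0.67 (SE 0.11) (limma adjusted p = 0.00189), and 1.56-fold with magnolol, at 0.64 (SE 0.11) (limma adjusted p = 0.00125). The rise with rosiglitazone was smaller, at log2FC 0.37 (SE 0.11) (limma adjusted p = 0.0300), and was lost without vehicle library 1 or 2 or rosiglitazone library 2 or 3 (limma adjusted p = 0.089 to 0.142) and with 3 other settings. In 3T3-L1 Nt5e held only 0.883 to 10.9 normalized counts, its groups overlapped, and it was not tested.

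The adenosine pathway around CD73 was followed as a list of enzymes, transporters and receptors. In DFAT 4 of 11 rose and 1 fell with the combination, with a median of 0.25. ADORA1, an adenosine receptor coupled to inhibition of cAMP production, rose at log2FC 0.89 (SE 0.14) with the combination and at 1.64 (SE 0.14) with rosiglitazone (limma adjusted p = 3.48e-04 and 3.13e-07). ENTPD1 (CD39), which acts upstream of CD73, rose at log2FC 0.31 (SE 0.09) with the combination (limma adjusted p = 0.0445). SLC29A1, a nucleoside transporter, rose at log2FC 0.44 (SE 0.08) with dicoumarol and fell at −0.34 (SE 0.08) with rosiglitazone (limma adjusted p = 0.00448 and 0.00794). In 3T3-L1 Adora1 rose with rosiglitazone from 1.47 ± 1.86 to 34.6 ± 1.84 normalized counts (SD, n = 3, limma adjusted p = 1.74e-05). There 3 of 10 list genes fell, against 19.9% of all genes, with a list median of −0.58.

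Dpp4 (CD26) encodes an ectopeptidase that marks early interstitial progenitors in subcutaneous fat, and is ENSSSCG00000015894 on chromosome 15 from 68660521 to 68743663 in the pig table. DFAT libraries had 477, 426 and 557 normalized counts with vehicle, 722, 624 and 644 with dicoumarol and 616, 491 and 617 with magnolol. They had 619.9, 629.8 and 759 with the combination and 570.3, 510.2 and 671 with rosiglitazone. Dicoumarol and combination libraries lay above all vehicle libraries, and the other groups overlapped with vehicle. The combination raised DPP4, at log2FC 0.46 (SE 0.13) (limma adjusted p = 0.0250), which did not pass without vehicle library 1 or 2 or combination library 3 (limma adjusted p = 0.0789 to 0.121) and with 2 other settings. Dicoumarol gave log2FC 0.45 (SE 0.13) (limma adjusted p = 0.0877), which passed with only the compared groups fitted (limma adjusted p = 0.0328) and with the replicate block (limma adjusted p = 0.00462). None of the 5 DPP4 relatives above the minimum passed against vehicle in DFAT, while in 3T3-L1 Dpp7, Dpp8 and Dpp9 fell with rosiglitazone, Dpp7 at log2FC −0.82 (SE 0.10) (limma adjusted p = 1.56e-05).

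Pi15 encodes a secreted protein of the CAP superfamily, first described as an inhibitor of trypsin. It is ENSMUSG00000067780 on chromosome 1 from 17672125 to 17701163 in the mouse table and ENSSSCG00000006172 on chromosome 4 from 61114497 to 61142811 in the pig table. In 3T3-L1 its normalized counts were 499, 874 and 458 with vehicle, 428, 456 and 448 with dicoumarol and 350.1, 466 and 419.7 with magnolol. They were 250.4, 318 and 366 with the combination and 76.5, 199 and 185 with rosiglitazone. Vehicle library 2 stood well above the other vehicle libraries, and no rosiglitazone library reached the lowest of any other group. Pi15 fell 4.11-fold with rosiglitazone, at log2FC −2.04 (SE 0.30) (limma adjusted p = 6.42e-05). The combination value was log2FC −0.92 (SE 0.30) (limma adjusted p = 0.0896, or 0.00934 with the replicate block), and it also passed with only the compared groups fitted (limma adjusted p = 0.0417) and with limma-voom (adjusted p = 0.0453).

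PI15 moved the other way with rosiglitazone in DFAT. Its counts were 182, 125 and 147 with vehicle, 77.0, 71.1 and 61.9 with dicoumarol and 48.2, 79.5 and 64.2 with magnolol. With the combination they were 44.1, 47.9 and 37.0, and with rosiglitazone 305, 266 and 211. Dicoumarol, magnolol and combination libraries all lay below the lowest vehicle library, and all rosiglitazone libraries lay above the highest. The values that picked the gene were log2FC −1.24 (SE 0.20) with magnolol and −1.78 (SE 0.20) with the combination. Dicoumarol lowered PI15, at log2FC −1.09 (SE 0.20) (limma adjusted p = 0.00547), and rosiglitazone raised it, at 0.78 (SE 0.20), or 1.72-fold (limma adjusted p = 0.0155). The rosiglitazone call was lost without vehicle library 2 (limma adjusted p = 0.0882) or rosiglitazone library 1 (limma adjusted p = 0.072). The difference in sign between the systems was not tested. Of its relatives, mouse Pi16 fell at log2FC −1.11 (SE 0.26) and pig CRISPLD2, at −0.75 (SE 0.08) with rosiglitazone (limma adjusted p = 0.00273 and 4.18e-06).

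**Figure D3:**
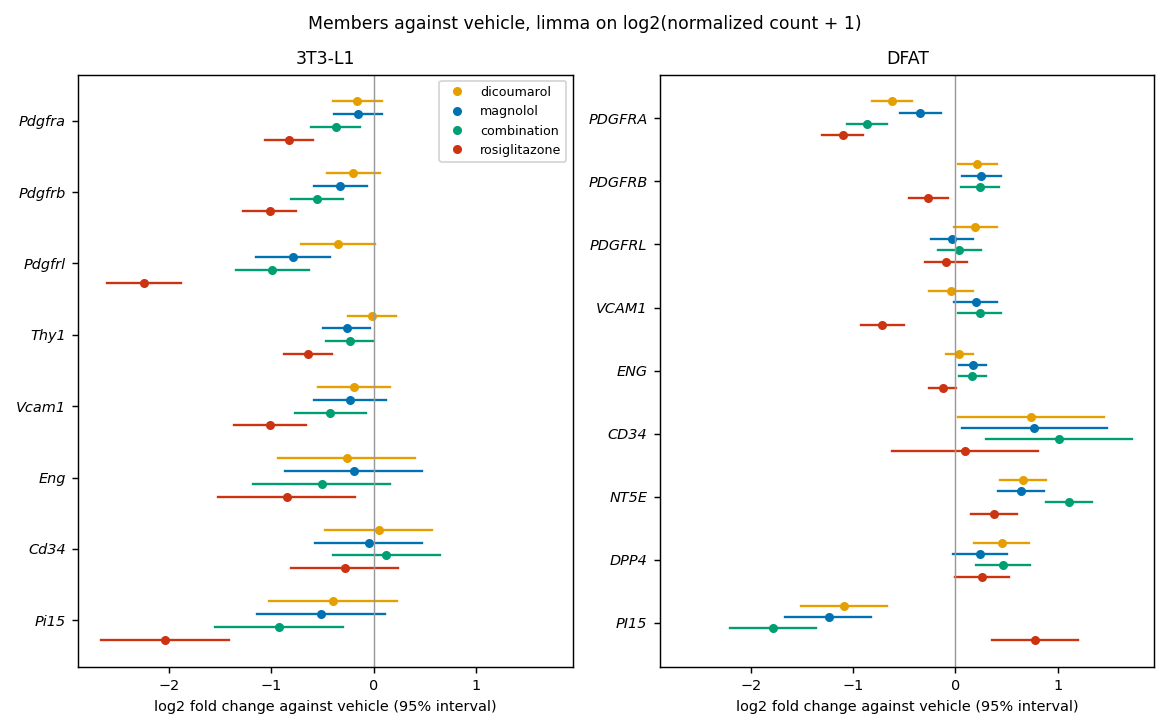
Log2 fold change of each tested member against vehicle (horizontal axis) with its 95% interval from limma, in 3T3-L1 (left) and DFAT (right), coloured by treatment. The mouse intervals for rosiglitazone lie below 0 for all members but Cd34. In DFAT, PDGFRA lies below 0 and NT5E above 0 with every treatment. PI15 lies above 0 with rosiglitazone and below 0 with dicoumarol. The PI15 intervals for magnolol and the combination, and the mouse Pdgfrl interval for magnolol, belong to values that picked the genes and test nothing. Other Pdgfrl and PI15 intervals share the vehicle libraries with that choice.

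The combination was set against each single compound. In 3T3-L1, 0 of 8 members passed against dicoumarol by limma and by limma-voom, 2 had an unadjusted p under 0.05, and 0.0254% of all genes passed. With the replicate block 2 passed there, Pdgfrb at log2FC −0.35 (SE 0.12) and Pdgfrl at −0.64 (SE 0.17) (limma adjusted p = 0.00854 and 0.0146). Against magnolol 0 of 7 passed by either tool, with 0 at an unadjusted p under 0.05 and 0.0% of all genes. In DFAT 1 of 8 was higher than with dicoumarol, NT5E at log2FC 0.45 (SE 0.11) (limma adjusted p = 0.0326), where 2.0% of all genes were higher. That call was lost without dicoumarol library 1, 2 or 3 or combination library 2 or 3 (limma adjusted p = 0.0648 to 0.201) and with 2 other settings.

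Against magnolol 1 of 8 DFAT members was lower with the combination, PDGFRA at log2FC −0.52 (SE 0.0943) (limma adjusted p = 0.0125), where 0.236% of all genes were lower. The call was lost without magnolol library 1 or combination library 2 or 3 (limma adjusted p = 0.0545 to 0.0942) and with 2 other settings. NT5E was at log2FC 0.47 (SE 0.11) (limma adjusted p = 0.0603); it passed with the replicate block (limma adjusted p = 4.54e-04), without combination library 1 (limma adjusted p = 0.0471) and with limma-voom (adjusted p = 0.0463). An interaction term, the log2 change of the combination less those of both single compounds, passed for 0 of 7 members in 3T3-L1, where 0.0% of all genes passed, and for 0 of 8 in DFAT, where 0.081% did; 0 had an unadjusted p under 0.05 in either system, and limma-voom also gave 0. The interval of that departure was −0.51 to 0.12 for NT5E and −0.18 to 0.38 for PDGFRA in DFAT.

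Rosiglitazone was also set against the combination. In 3T3-L1, 6 of 8 members were lower with rosiglitazone, where 8.78% of all genes were lower. They were Pdgfra at log2FC −0.46 (SE 0.11), Pdgfrb at −0.46 (SE 0.12), Pdgfrl at −1.26 (SE 0.17), Thy1 at −0.40 (SE 0.11), Vcam1 at −0.59 (SE 0.17) and Pi15 at −1.12 (SE 0.30). Their limma adjusted p ran from 6.43e-04 for Pdgfrl to 0.0234 for Vcam1. With the replicate block the same 6 passed. With only these 2 groups fitted, 1 of 8 passed, Pdgfrl. Without rosiglitazone library 1, which had the highest mitochondrial share, 1 of 8 passed, again Pdgfrl; without combination library 2 or 3, 2 passed, Pdgfra and Pdgfrl. The part of the mitochondrial share in these differences was not tested.

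In DFAT 4 of 8 members were lower with rosiglitazone than with the combination, against 8.79% of all genes. VCAM1 was at log2FC −0.95 (SE 0.10) (limma adjusted p = 4.56e-06), NT5E at −0.74 (SE 0.11) (limma adjusted p = 1.06e-04), PDGFRB at −0.51 (SE 0.0896) (limma adjusted p = 7.09e-04) and ENG at −0.29 (SE 0.0626) (limma adjusted p = 0.00373). PDGFRA, at log2FC −0.24 (SE 0.0943), passed with the replicate block (limma adjusted p = 0.00568) and not without it (limma adjusted p = 0.0998). PI15, given here as a description, was 5.91-fold higher with rosiglitazone, at log2FC 2.56 (SE 0.20). Mitochondrial genes took 12.2% to 15.1% of the counts in the combination libraries and 6.85% to 10.8% in the rosiglitazone libraries, and their part in these differences was not tested.

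A further list of genes reported in preadipocytes and fibro-adipogenic progenitors was read beside the members. In 3T3-L1, 21 of 34 fell and 4 rose with rosiglitazone, 4 fell and 3 rose with the combination, 2 fell and 3 rose with magnolol, and none passed with dicoumarol. The list's median was −0.62 with rosiglitazone and −0.28 with the combination. Fn1, which encodes fibronectin, fell at log2FC −1.77 (SE 0.20) with rosiglitazone, Ly6a (Sca-1), at −1.36 (SE 0.26) and the monooxygenase gene Fmo2, at −3.01 (SE 0.45) (limma adjusted p = 7.04e-06, 6.89e-04 and 9.07e-05). Mcam (CD146), which is also on the mural list, rose at log2FC 3.47 (SE 0.52) with rosiglitazone and 2.84 (SE 0.52) with the combination (limma adjusted p = 8.00e-05 and 0.00386).

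In DFAT the same list gave 7 of 31 lower and 2 higher with rosiglitazone, 9 lower and 6 higher with the combination, 5 lower and 4 higher with magnolol, and 7 lower and 1 higher with dicoumarol. Its median was −0.02 with rosiglitazone and −0.07 with the combination. CXCL12, a chemokine of stromal niches, fell at log2FC −1.33 (SE 0.15) with the combination and −1.35 (SE 0.15) with rosiglitazone (limma adjusted p = 1.29e-05 and 7.84e-06). The matrix proteoglycan genes DCN and LUM, also on the fibroblast list, fell with all 4 treatments, DCN at log2FC −0.52 (SE 0.06) with magnolol to −1.10 (SE 0.06) with the combination. CD24 fell with dicoumarol, magnolol and the combination, the last at log2FC −0.61 (SE 0.12), and rose with rosiglitazone, at 0.76 (SE 0.12) (limma adjusted p = 0.00237 and 2.66e-04).

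Markers of other cell states moved along with the members, and their part in the members' changes was not tested. The 22 tested adipocyte markers of 3T3-L1 rose in 22 cases with rosiglitazone, 21 with the combination, 16 with magnolol and 0 with dicoumarol. Their summed level was 67766 to 91098 normalized counts with vehicle and 441437 to 708031 with rosiglitazone. The members' summed level, of which Pdgfra held the largest part, was 38197 to 42046 with vehicle and 17949 to 24301 with rosiglitazone, with no overlap. In DFAT 18 of 21 adipocyte markers rose with rosiglitazone, 18 with the combination, 16 with magnolol and 7 with dicoumarol, and their sum was 104533 to 121736 with vehicle, 222149 to 250027 with the combination and 336312 to 369928 with rosiglitazone. The members' summed level in DFAT was 103967 to 118945 with vehicle, 92983 to 98967 with the combination and 65072 to 79190.1 with rosiglitazone. PDGFRA and PDGFRB, at vehicle means of 60676 and 39124, held most of it. Of the 8 members counted with the combination, only PDGFRA had a log2 fold change below 0. With rosiglitazone it was below 0 for 5 of 9. The median over all genes was −0.0104 with the combination and −0.00569 with rosiglitazone. ADIPOQ, which encodes adiponectin, rose at log2FC 6.29 (SE 0.22) with the combination and 7.15 (SE 0.22) with rosiglitazone (limma adjusted p = 2.39e-12 and 2.84e-13).

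Fibroblast and mural markers moved as well, and their part in the members' changes was likewise not tested. In 3T3-L1, 8 of 12 fibroblast markers fell and 2 rose with rosiglitazone, and their sum was 512116 to 572739.9 with vehicle and 360179 to 470954 with rosiglitazone. Of 6 mural markers there, 3 fell and 2 rose with rosiglitazone, where 19.9% of all genes fell. In DFAT 3 of 11 fibroblast markers rose and 2 fell with the combination, DCN and LUM being those that fell, and 1 rose and 3 fell with rosiglitazone, with medians of 0.11 and −0.31. Their sum, to which abundant collagens contribute most, was 2697137 to 2828149 with vehicle and 2250881 to 2395943 with rosiglitazone. It was higher with dicoumarol, at 3549699 to 3660500, magnolol, at 3982383 to 4555494, and the combination, at 3946745 to 4595473. COL1A1, a main collagen chain, rose at log2FC 0.85 (SE 0.13) with the combination (limma adjusted p = 3.78e-04). Of 11 mural markers in DFAT, 8 rose and 1 fell with the combination, and 3 rose and 1 fell with rosiglitazone; among them were CSPG4 at log2FC 1.71 (SE 0.07) and MYH11 at 1.79 (SE 0.14) with the combination (limma adjusted p = 3.92e-11 and 1.16e-07). None of the 3 blood cell markers above the minimum passed against vehicle in DFAT, and Cd14 alone of 3 fell with rosiglitazone in 3T3-L1, at log2FC −1.32 (SE 0.14) (limma adjusted p = 3.08e-06). Msln, the 1 mesothelial marker above the minimum in 3T3-L1, fell at log2FC −1.05 (SE 0.29) with the combination and −0.96 (SE 0.29) with rosiglitazone (limma adjusted p = 0.0479 and 0.0156), and the 1 in DFAT did not pass against vehicle. Of 3 endothelial markers above the minimum in DFAT, ERG rose at log2FC 0.67 (SE 0.20) with rosiglitazone (limma adjusted p = 0.0354).

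**Figure D4:**
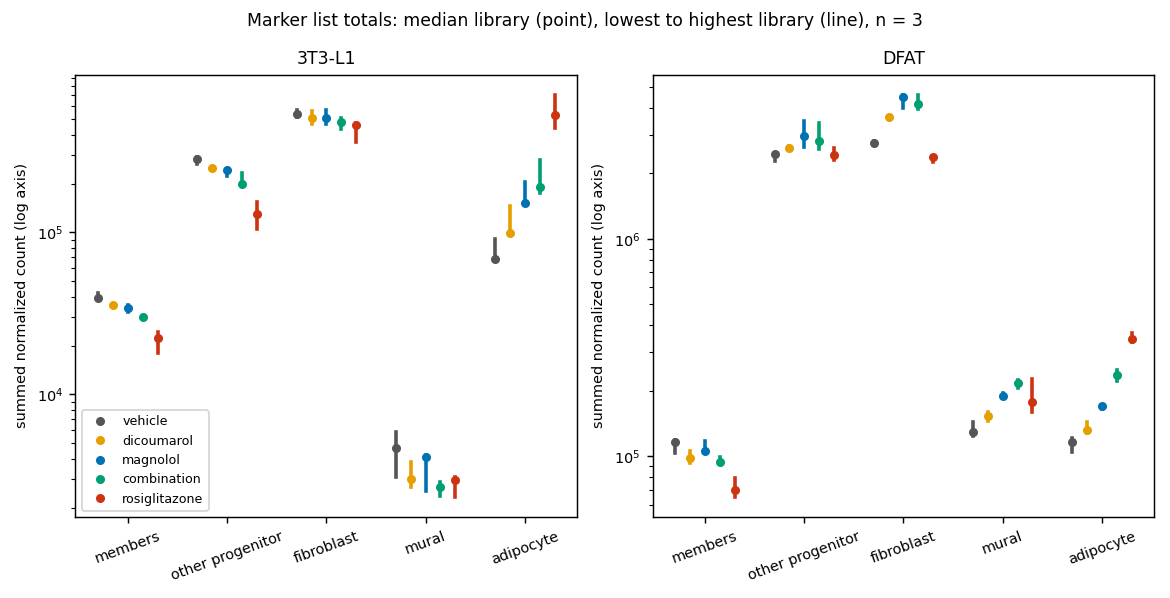
Summed normalized counts of each marker list (vertical log axes) in 3T3-L1 (left) and DFAT (right), coloured by treatment; points are the median library and lines run from the lowest to the highest of 3 libraries. The members' total is lowest with rosiglitazone in both systems while the adipocyte total is highest there. The fibroblast totals of DFAT are higher with dicoumarol, magnolol and the combination than with vehicle, and its mural totals are higher with every treatment.

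The genes whose patterns were most like each member's were found by Pearson's r of log2 values over the 15 libraries of a table, a description that also reflects the shared treatments and libraries. In 3T3-L1 they were App (r = 0.982) and Peg3 (r = 0.978) for Pdgfra, Ppt1 (r = 0.988) and Adamts2 (r = 0.987) for Pdgfrb, and Scpep1 (r = 0.990) and Rnase4 (r = 0.989) for Pdgfrl. Thy1 was nearest to Steap3 (r = 0.970) and P4ha2 (r = 0.960), Vcam1 to Ptpn13 (r = 0.991) and Igf1r (r = 0.983), and Pi15 to Slc25a24 (r = 0.988) and Zc2hc1a (r = 0.986). The low genes Cd34 and Eng had weaker best matches, Cotl1 (r = 0.888) and Jun (r = 0.874). In DFAT PDGFRA was nearest to ABCC9 (r = 0.962) and C3 (r = 0.928), NT5E to SORBS2 (r = 0.966) and PRELP (r = 0.954), and PI15 to GPRC5A (r = 0.977) and NOB1 (r = 0.974). PDGFRB was nearest to MRC2 (r = 0.973), VCAM1 to PLEKHH2 (r = 0.979), ENG to PLXNB2 (r = 0.955), DPP4 to SPAG7 (r = 0.885) and CD34 to DCTN1 (r = 0.886). The lowest best match was that of PDGFRL in DFAT, TRIM65 (r = 0.759).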

How the data were processed

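Poly(A) RNA libraries that keep strand were sequenced, per the labels' protocols; bcl2fastq 2.19.1.403, STAR, DESeq2 and build GRCm38 are named in the submitters' processing notes, with no role given. Per the labels, the deposited values are a signal per gene: counts divided by DESeq2 size factors, with 1 table per species. Columns were mapped to samples by name. Of 24843 mouse genes, 24070 matched the GENCODE M21 annotation of GRCm38, 95.5% of them with the same length but 2.18% with the same start. Most deposited mouse starts thus do not lie where GRCm38 puts them, and the build they follow was not identified. Those coordinates cannot be set beside the RefSeq promoter regions. Ends are the listed stop less 1. Exon lengths came from that annotation by gene identifier.

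Low values were whole multiples of 1 read (tolerance 0.02, up to 20 reads) in 81.7% to 82.8% of cases in 3T3-L1 and 89.7% to 91.0% in DFAT, so whole reads were not recovered, no count test was run, and depths are estimates from these steps.

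Genes with a mean of at least 10 (15723 mouse, 14819 pig) were fitted on log2(value + 1) by limma 3.58.1 under R 4.3.3, each table alone, 5 groups in 1 model, with a variance trend; tests were two-sided, with Benjamini-Hochberg adjusted p over all genes of a table and a threshold of 0.05; "called" or "passed" means an adjusted p under 0.05, and fold changes are on the log2(value + 1) scale, which understates those of low genes. Intervals are 95% intervals. The members and lists were chosen with earlier results of these data known. Named list genes are up to 4 per list and table, those called with the largest change against vehicle; most alike genes are the 2 with the highest r among those with a symbol and a mean of at least 100. Alternatives were pseudocounts of 0.5 and 5, no filter, no variance trend, only the compared groups, quantile normalization, TMM factors (computed from the published method), a replicate block, limma-voom on estimated reads, and each library left out. The fit was tested on simulated data. Python 3.11.15, numpy 2.4.6, pandas 2.3.3 and matplotlib 3.10.9 made tables and plots.

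Replicates are numbered 1 to 3 in every group, with no word on what they share. All 30 3T3-L1 pairs of same-numbered libraries had deviations from their group means that correlated above 0.1 (lowest 0.106), so the numbers pair these libraries. In DFAT this held only between magnolol, combination and rosiglitazone libraries (0.105 to 0.345), which pairs the comparisons of the combination with magnolol and of rosiglitazone with the combination. Vehicle correlated at 0.0747 to 0.193 with dicoumarol, 0.00472 to 0.209 with magnolol, 0.0331 to 0.166 with the combination and −0.306 to 0.0763 with rosiglitazone. Unlike-numbered DFAT pairs had a median of −0.065, so a weaker pairing with vehicle is not settled.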

Additional observations from a re-analysis of the deposited data

Results flagged for a closer look

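The following 4 comparisons were singled out because every treated library moved one way against all vehicle libraries in one cell system and the opposite way in the other. Every member tested in both systems was screened in this way with all 4 treatments. How often other genes met the same rule was not counted. The log2 fold change of Pdgfrb with magnolol was −0.33 in the mouse cells and 0.25 in the pig cells. For Pdgfrb with the combination it was −0.55 in 3T3-L1 and 0.24 in DFAT. For Vcam1 with the combination it was −0.42 in 3T3-L1 and 0.24 in DFAT. For Pi15 with rosiglitazone it was −2.04 in 3T3-L1 and 0.78 in DFAT. The difference between the systems was not tested in any of the 4, because the tables differ in species and medium and were normalized separately. Of these 8 values, the limma test against vehicle passed for Pdgfrb with the combination in 3T3-L1 and for Pi15 with rosiglitazone in both systems. All 8 were chosen because these same libraries separate fully, which favours a pass. The limma tests, with and without the block, are thus not independent of that choice. With the replicate block, whose numbers pair the 3T3-L1 libraries, Pdgfrb with magnolol (limma adjusted p = 0.00931) and Vcam1 with the combination (limma adjusted p = 0.00163) passed there as well. In DFAT the block also gave passes for PDGFRB with magnolol and with the combination (limma adjusted p = 0.0305 and 0.0239). VCAM1 with the combination passed in DFAT too (limma adjusted p = 0.0449). The same-numbered DFAT libraries of these comparisons did not all correlate above 0.1.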

How the results depend on the processing

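No called value changed sign under any alternative that was run, while 60 values of fold changes that had not passed did, none of them called with the other sign. Leaving aside the comparisons that picked Pdgfrl and PI15, 1902 of the members' fold changes under an alternative kept their side of the threshold, 63 no longer passed and 30 newly passed. The replicate block moved the count of members called in 3T3-L1 from 0 to 1 with magnolol, from 2 to 5 with the combination and from 0 to 2 for the combination against dicoumarol, and in DFAT from 1 to 2 for the combination against magnolol. In DFAT the block gave 6 in place of 3 with the combination and 3 in place of 1 for the combination against dicoumarol. The same-numbered libraries of these 2 comparisons did not all correlate above 0.1. In DFAT the block also newly passed DPP4 with dicoumarol, PDGFRB with magnolol, and DPP4 and PDGFRB with rosiglitazone, again without such correlation throughout. It newly passed PDGFRA for rosiglitazone against the combination, whose same-numbered libraries did all correlate above 0.1. With only the compared groups fitted, rosiglitazone against the combination in 3T3-L1 gave 1 in place of 6, and in DFAT magnolol gave 1 in place of 2 and the combination against dicoumarol 2 in place of 1; fewer libraries then estimate the spread. With no filter on low values DFAT gave 1 with magnolol, 0 for the combination against dicoumarol and 0 for it against magnolol, and with no variance trend likewise 1, 0 and 0. TMM factors gave 1 with magnolol in DFAT, and limma-voom gave 2 for the combination against magnolol. Smaller moves of the counts under these settings are not all listed. The cause of the moves was otherwise not tested. Leaving out 1 library gave 1 to 3 members with the combination and 1 to 6 for rosiglitazone against the combination in 3T3-L1. In DFAT it gave 1 to 2 with magnolol, 2 to 6 with rosiglitazone, 0 to 1 for the combination against dicoumarol and 0 to 2 for it against magnolol. Mouse Eng, Cd34 and Nt5e and pig CD34 rest on few reads, which limits what their values can show.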
